A study of Mus musculus with 35 samples.

Results

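Interferon-stimulated antiviral genes encode the proteins that a cell makes against viruses after it has sensed interferon. A list of 37 of them was followed by RNA-seq in cultured mouse macrophages. Each of the 37 symbols mapped to 1 gene row of the deposited tables and reached the required mean of at least 1 FPKM over all libraries, so all 37 were tested, among 47069 gene rows in all and 11354 that reached that mean. Ifi205 reached it only through the LPS libraries (mean 0.652 FPKM over the other 30), so it had to be high with LPS, while the other 36 genes reached it without them. FPKM counts fragments relative to gene length (in kilobases) and to the fragments in the library. The cells were bone marrow-derived macrophages (BMDMs) of C57BL/6 mice, grown out of bone marrow in L929-conditioned medium, and either wild-type (17 libraries) or labelled AMPKa1-/- (18 libraries), a knockout of the AMP-activated kinase subunit encoded by Prkaa1. They were exposed for 24 h to vehicle (DMSO), to the synthetic glucocorticoid dexamethasone (Dex, 100 nM), to lipopolysaccharide (LPS, 100 ng/ml), to LPS + Dex, to damage-associated molecular patterns (DAMPs, 1 µg/ml) or to DAMPs + Dex. What the DAMPs consisted of is not given in the sources used here. Each of the 12 groups had 3 libraries, except wild-type LPS with 2 (replicates 2 and 3, while replicate 1 was not analysed here). The mice were of mixed sex and 8 to 15 weeks old, and n stands for cultures from individual animals, per the study's methods.

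The libraries held 15837203 to 31955298 fragments (median 19973568), and a single fragment on a 1 kb transcript came to between 0.0313 and 0.0631 FPKM. RNA of Prkaa1 was not called lower under the knockout label. It was 15.9, 11.8 and 15.3 FPKM in the wild-type vehicle libraries and 14.8, 16.5 and 15.4 FPKM in those labelled AMPKa1-/-, a log2 difference of 0.12 with a 95% interval of −0.36 to 0.60. In the other treatments, Prkaa1 was at 26.1, 23.2 and 19.1 FPKM with Dex in wild-type cells and 21.5, 14 and 20.4 FPKM under the knockout label. With LPS it was at 15.3 and 10.4 FPKM (wild-type) and at 9.05, 11.2 and 10.5 FPKM (AMPKa1-/-), and with LPS + Dex at 20.5, 13.7 and 8.59 FPKM (wild-type) and at 12.5, 12.9 and 9.65 FPKM (AMPKa1-/-). With DAMPs the values were 17.9, 12.4 and 11 FPKM (wild-type) and 10.7, 15.8 and 16.4 FPKM (AMPKa1-/-), and with DAMPs + Dex 20.9, 12.5 and 19.5 FPKM (wild-type) and 21.8, 20.0 and 24 FPKM (AMPKa1-/-). No difference of Prkaa1 was called in any of the 6 treatments, and the genotype is therefore given as labelled. Which part of the gene the knockout removes is not given in the sources used here. The macrophage markers fitted the label of the cells. The summed FPKM of 8 of them (Adgre1, Csf1r, Cd68, Itgam, Mertk, Fcgr1, Lyz2 and Cd14) had a group median of at least 17237 (wild-type LPS), led by Lyz2 in each library, while Cd3e, Ncr1 and Ms4a1, which mark T cells, NK cells and B cells, were under 0.1 FPKM everywhere.

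Interferons are secreted proteins that bind receptors on the cell surface. Type I interferons act through IFNAR1 and IFNAR2 and the kinases JAK1 and TYK2, and the transcription factor complex ISGF3, which contains STAT2 and IRF9, then enters the nucleus and binds interferon-stimulated response elements (ISREs) before the antiviral genes. In macrophages LPS is known to start this sequence through TLR4, TRIF and IRF3, which switch on the gene of interferon beta. Glucocorticoids act through the glucocorticoid receptor and are known to restrain inflammatory and interferon-driven genes in these cells. The products of the 37 genes sense viral nucleic acid, cut or block viral RNA, hold back budding particles, modify proteins or feed back on the pathway itself.

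Because ISGF3 reads its target DNA directly, the promoter windows of the listed genes were searched for an ISRE. RefSeq promoter windows (assembly GRCm38.p6) were held for 26 of the 37 genes, and the 250 bases before the gene start were searched. The letters GAAANNGAAA, on either strand, were found in 12 of these 26 genes (46.2%), against 936 of 27025 genes with a window (3.46%). The sequences below are 40-base stretches around a match in genes with contrasting responses, written 5′ to 3′ on the strand of the gene. Capitals mark the match itself, and TTTCNNTTTC is a match on the opposite strand. Isg15 holds 3 overlapping matches and Bst2 holds 2, of which 1 is capitalised in each. Ifit1, Ifit3 and Ifit3b each hold 2 separate matches, of which the one nearer to the gene start is shown.
Isg15: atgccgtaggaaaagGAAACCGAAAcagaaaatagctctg
Bst2: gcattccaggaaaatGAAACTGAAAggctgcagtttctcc
Ifit1: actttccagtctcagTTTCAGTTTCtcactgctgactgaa
Ifit3: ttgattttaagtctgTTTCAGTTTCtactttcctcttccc
Ifit3b: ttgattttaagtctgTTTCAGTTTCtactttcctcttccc
Rsad2: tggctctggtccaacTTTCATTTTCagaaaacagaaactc
Oas3: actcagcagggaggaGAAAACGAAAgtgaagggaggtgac
Stat2: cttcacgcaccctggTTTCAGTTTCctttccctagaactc
Ifi203: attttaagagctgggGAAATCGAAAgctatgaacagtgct

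These stretches lie at chr4:156200866-156200905 (minus strand, Isg15), chr8:71537572-71537611 (minus strand, Bst2), chr19:34640789-34640828 (plus strand, Ifit1), chr19:34583392-34583431 (plus strand, Ifit3), chr19:34607788-34607827 (plus strand, Ifit3b), chr12:26456548-26456587 (minus strand, Rsad2), chr5:120777710-120777749 (minus strand, Oas3), chr10:128270261-128270300 (plus strand, Stat2) and chr1:173942503-173942542 (minus strand, Ifi203). Distances are counted from the gene start of the RefSeq window. The match shown begins 72 bases before that start in Isg15, 124 in Bst2 and 85 in Ifit1. In Rsad2, Oas3 and Ifi203 these distances are 120, 75 and 35. For some genes, such as Ifit1, this start differs from the GENCODE gene position used elsewhere in the text. By the GENCODE position the Ifi203 match lies inside the gene. The stretches of Ifit3 and its neighbour Ifit3b are identical, and fragments from such near-identical copies may have been split between them in counting, so the values of Ifit3 and Ifit3b, like those of the related Ifi203, Ifi204 and Ifi205 and of the Oas genes, are uncertain in that respect. Ddx60, Ifi205 and Oas1a also held a match, and the other 14 genes with a window did not have these letters in it. The letters GNACANNNTGTNC of a glucocorticoid response element were in none of the 26 and in 0.440% of all. A match is a description of the letters, and binding was not measured.

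By the median of their group means, the 37 genes were highest with LPS and intermediate with DAMPs, and lay near or below the vehicle level in the groups with Dex. Ifi203 departed from this order, with a higher mean with DAMPs than with LPS in both genotypes, as did Oas2 under the knockout label, and Ifi205 was near the limit of detection with vehicle. On the log2 scale the Oas2 direction turned with libraries set to a common median or without LPS replicate 1. That of wild-type Ifi203 turned without DAMPs replicate 3. The median of the group means was 12.2 FPKM with vehicle in wild-type cells, 164 FPKM with LPS and 54.7 FPKM with DAMPs. With Dex it was 7.24 FPKM, with LPS + Dex 12.9 FPKM and with DAMPs + Dex 6.61 FPKM. In AMPKa1-/- labelled cells the same medians were 11.2 FPKM (vehicle), 163 FPKM (LPS), 42.4 FPKM (DAMPs), 5.93 FPKM (Dex), 8.93 FPKM (LPS + Dex) and 6.86 FPKM (DAMPs + Dex). Bst2 had the highest mean in each of the 12 groups. It was the single gene with a mean over 100 FPKM with vehicle or in the groups with Dex, whereas 26 genes, Bst2 included, passed that level with LPS in wild-type cells, 24 with LPS under the knockout label and 7 with DAMPs in either. FPKM are per length, so these levels can be compared between genes. In bulk RNA such as this, fewer cells that express a gene and less RNA per cell cannot be told apart.

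**Figure D1:**
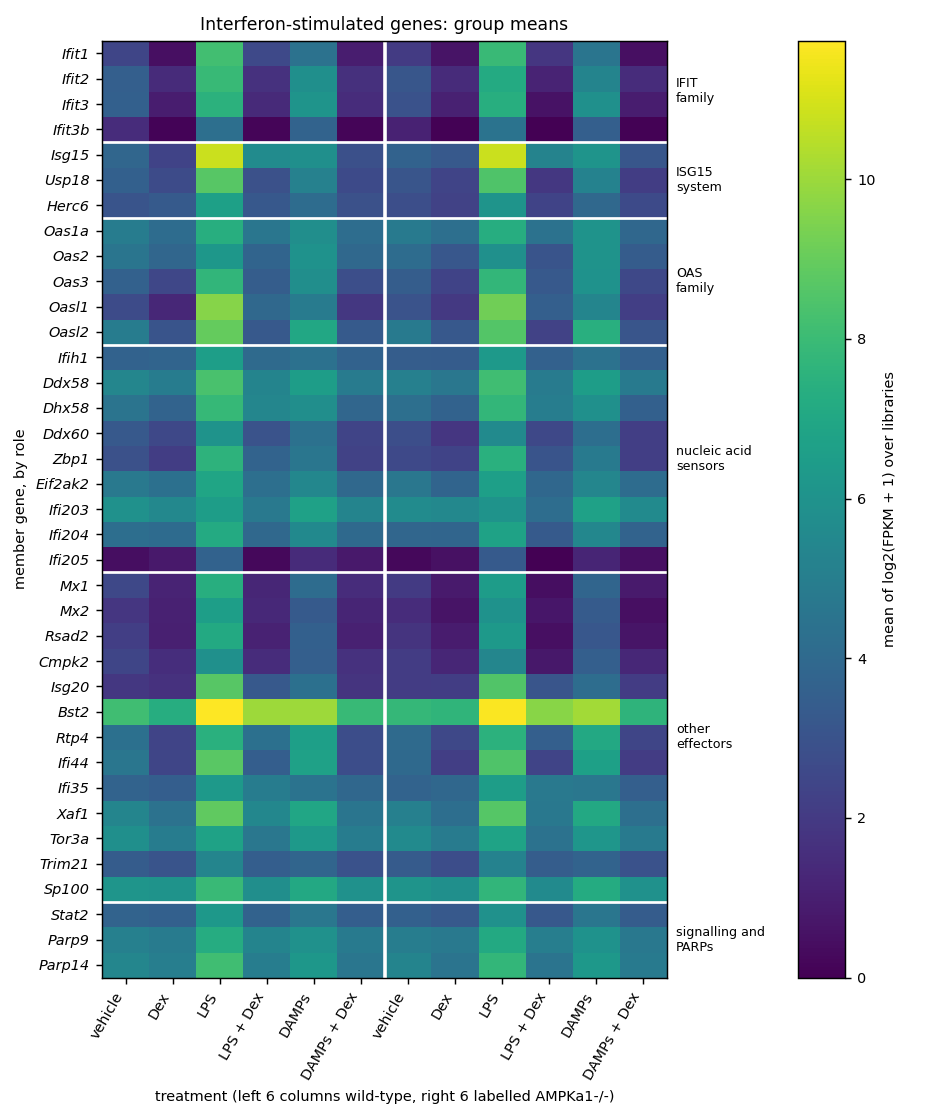
Heat map of the mean log2(FPKM + 1) of the 37 genes (rows, ordered by role) in the 12 groups (columns, genotype and treatment). The LPS columns are the brightest for most rows, the DAMPs columns follow, and Bst2 is bright throughout.

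Several libraries stood apart from their group over the whole list. In wild-type DAMPs replicate 3 all 37 genes were above the mean of their group, with a median deviation of 1.03 on the log2 scale, and in replicate 2 all 37 were below it (−0.71). LPS replicate 3 labelled AMPKa1-/- was above its group's mean for 37 genes (0.45) and replicate 2 for 1 gene. Vehicle replicate 3 labelled AMPKa1-/- was above its group's mean for 1 gene (−0.49) and replicate 1 for 34 genes (0.36). Wild-type vehicle replicate 3 was above its group's mean for 34 genes (0.24). DAMPs replicate 1 labelled AMPKa1-/- was above its group's mean for 2 genes (−0.27), and LPS + Dex replicate 3 of that label for 5 genes (−0.32). The counts of called genes are therefore also given with single libraries left out.

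Groups were compared with limma on log2(FPKM + 1), in 1 fit over all 12 groups, and a gene was called where the p-value adjusted by the Benjamini-Hochberg method over the 11354 genes was under 0.05. Changes on this scale understate those of weakly expressed genes. The SEs of the listed genes came from this shared spread, which means that the 2 wild-type LPS libraries were taken to scatter as much as libraries elsewhere. Between LPS and vehicle the median change of all genes was −0.19 in wild-type and −0.30 in AMPKa1-/- labelled cells, and between LPS + Dex and vehicle −0.23 and −0.28, and changes of the list are to be read against these shifts. Centring all libraries on a common median takes the shift out.

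To ask how strongly LPS switched the program on, LPS was compared with vehicle. All 37 genes were called higher in wild-type macrophages, where 19.9% of all genes tested rose, and 36 of 37 under the label AMPKa1-/-, against 20.2% of all genes. Without Ifi205, which passed the minimum only through these LPS libraries, the counts were 36 and 35 of 36. The median log2 change of the list was 3.37 and 3.38. In ratios of mean FPKM the median was 11.8 and 11.5, and 21 genes were at least 10 times as high with LPS as with vehicle in either genotype. Ifi205, which had to be high with LPS, is one of these 21. It is also included in the sensor median and in the library counts that follow. By role, the median change in wild-type cells was 5.09 for the ISG15 system, 4.14 for the IFIT family, 4.0 for the OAS family, 3.54 for the other effectors, 2.95 for the sensors and 2.49 for Stat2, Parp9 and Parp14. With any 1 library left out 36 genes were called in wild-type cells, where Ifi203 lost its call each time (adjusted p = 0.0502 to 0.128), and 36 or 37 under the knockout label. The lowest LPS library was above the highest vehicle library for 37 genes in wild-type cells and for 36 under the knockout label. How many of all genes tested were separated in this way was not counted, here or in the comparisons further on. Such counts of separated libraries therefore describe the list and have no background share. The vehicle and LPS libraries of each genotype also serve in the comparisons further on.

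The ISG15 system, in which the ubiquitin-like protein ISG15 is attached to other proteins and removed by the protease USP18, held the largest rise. Isg15 (ENSMUSG00000035692, chr4:156199424-156200818 in GRCm38, minus strand) had 11, 12.3 and 19.5 FPKM in the wild-type vehicle libraries and 1578 and 2060.2 FPKM with LPS, a change of 6.93 (SE 0.53, adjusted p = 9.1e-12). In AMPKa1-/- labelled cells Isg15 went from 18.4, 13.9 and 6.09 FPKM to 1737, 1268 and 2594 FPKM, a change of 7.14 (SE 0.47). Usp18, which also holds back signalling at the receptor, had 10.1, 11.1 and 12.4 FPKM with vehicle and 391 and 441 FPKM with LPS in wild-type cells, and 10.1, 9.38 and 4.56 FPKM (vehicle) and 351, 259.7 and 521 FPKM (LPS) under the knockout label. No library with LPS came near a vehicle library for either gene. Herc6, the ligase thought to attach ISG15 in mice, rose by 3.63 and 3.23.

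The OAS family makes oligoadenylates that activate RNase L, an activity that OASL1 lacks. Oasl1 (ENSMUSG00000041827, chr5:114923240-114937915, plus strand) went from 3.25, 7.67 and 6.12 FPKM to 592 and 1015 FPKM in wild-type cells, the largest ratio of means in that comparison (142), and from 12.1, 8.56 and 2.96 to 539.9, 391 and 934 FPKM under the knockout label. Oasl2 went from 23, 30.4 and 38.2 to 511 and 475 FPKM, and from 43.6, 33.1 and 12.5 to 360.1, 322 and 513 FPKM. Oas3 was at 8.29, 11.3 and 15.9 FPKM with vehicle and 217 and 209 FPKM with LPS, and at 14.4, 11.7 and 5.91 FPKM (vehicle) and 199.6, 165 and 311 FPKM (LPS) under the knockout label. All of these LPS libraries lay above all vehicle libraries of their genotype. Within the same family Oas2, whose libraries were at 20.2, 21.4 and 25.9 FPKM with vehicle and 96.5 and 55.7 FPKM with LPS, changed by 1.67 (adjusted p = 0.0001), among the 3 smallest rises in wild-type cells.

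The IFIT proteins bind foreign RNA and block its translation. Ifit1 (ENSMUSG00000034459, chr19:34640871-34650009, plus strand) had 3.62, 4.01 and 6.28 FPKM with vehicle and 311 and 273 FPKM with LPS in wild-type cells (5.73, SE 0.45, adjusted p = 1.9e-11), and 4.93, 4.46 and 1.13 FPKM (vehicle) and 247, 166 and 373 FPKM (LPS) under the knockout label. Ifit2 was at 9.72, 8.8 and 14.1 FPKM (vehicle) and 209.9 and 272 FPKM (LPS) in wild-type cells, and at 11.6, 10.8 and 3.66 FPKM (vehicle) and 128, 68.2 and 324 FPKM (LPS) under the knockout label. The 3 knockout-labelled LPS libraries of Ifit2 differ widely among themselves and still lie above every vehicle library. Ifit3 was at 7.7, 12.2 and 14.5 FPKM with vehicle and 180.3 and 185 FPKM with LPS, and at 12.2, 9.67 and 2.29 FPKM (vehicle) and 171, 95.1 and 260.1 FPKM (LPS) under the knockout label.

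Among sensors of viral nucleic acid, the RNA helicases Ifih1 (MDA5), Ddx58 (RIG-I) and Dhx58 (LGP2) and the Z-nucleic acid binding protein Zbp1 rose in both genotypes. Ifih1 was at 11.3, 10.9 and 13 FPKM with vehicle and 112 and 82 FPKM with LPS in wild-type cells, and at 10.2, 12.9 and 7.5 FPKM (vehicle) and 68.8, 63.8 and 105 FPKM (LPS) under the knockout label. Ddx58 was at 36.3, 38.6 and 49.5 FPKM (vehicle) and 361 and 301 FPKM (LPS), and at 39.3, 40.0 and 24 FPKM (vehicle) and 269, 248 and 345 FPKM (LPS). For each helicase the groups were clear of each other. Dhx58 was at 17.9, 22.5 and 25 FPKM with vehicle and 238 and 227 FPKM with LPS, and at 24.7, 19.1 and 13.6 FPKM (vehicle) and 190.0, 207 and 255 FPKM (LPS) under the knockout label. Zbp1 had the largest change of the 9 sensors, from 5.98, 5.84 and 7.83 to 213 and 175 FPKM in wild-type cells (4.69, SE 0.39, adjusted p = 5.6e-11) and from 7.23, 5.17 and 3.39 to 165, 153 and 204 FPKM under the knockout label.

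The Ifi200 genes, a family of DNA-binding proteins encoded side by side on chromosome 1, did not respond alike. Ifi204 went from 16, 17.9 and 19.3 to 134 and 154 FPKM and from 16.1, 15.9 and 9.56 to 101, 89.8 and 142 FPKM. Ifi205 was near the limit of detection with vehicle, at 0.334, 0.584 and 0.205 FPKM (wild-type) and at 0.174, 0.335 and 0.039 FPKM (AMPKa1-/-), and reached 11.8 and 12.3 FPKM (wild-type) and 6.72, 5.66 and 18.3 FPKM (AMPKa1-/-) with LPS. Ifi203 had the smallest rise of the 37: 58, 60.6 and 59.9 FPKM with vehicle against 95.2 and 90.5 FPKM with LPS in wild-type cells (0.63, SE 0.25, adjusted p = 0.0306). Under the knockout label Ifi203 was at 56.7, 59.5 and 35.8 FPKM (vehicle) and 60.5, 48.7 and 94.2 FPKM (LPS), groups that overlap, and the difference of 0.39 (95% interval −0.06 to 0.85, adjusted p = 0.119) was not called.

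Of the other effectors, Mx1, a gene of the dynamin-like GTPases, was at 4.48, 4.11 and 6.38 FPKM with vehicle and 149 and 174 FPKM with LPS in wild-type cells. Under the knockout label Mx1 was at 4.45, 3.88 and 1.29 FPKM (vehicle) and 69, 54.4 and 181 FPKM (LPS). Its protein was not measured. Rsad2 (viperin) and Cmpk2 (a nucleotide kinase) are neighbours on chromosome 12 that make a chain-terminating nucleotide together. Rsad2 went from 3.05, 3.08 and 4.87 to 121 and 164 FPKM and from 3.06, 3.65 and 0.984 to 61.9, 35.2 and 237 FPKM, and Cmpk2 from 3.66, 4.28 and 5.4 to 52.5 and 64.6 FPKM and from 4.8, 3.43 and 2.03 to 31.3, 18.5 and 119 FPKM. In LPS replicate 3 labelled AMPKa1-/- both were several times higher than in the other LPS libraries of that genotype. The exonuclease gene Isg20 had the third largest rise in wild-type cells (6.76, SE 0.50), from 1.77, 4.67 and 2.36 to 332 and 496 FPKM.

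Bst2 (tetherin, which holds budding virions at the membrane) was the most abundant gene of the list, at 269, 315 and 269 FPKM with vehicle and 3005 and 3872 FPKM with LPS in wild-type cells, and at 291, 250.4 and 158 FPKM (vehicle) and 3115, 3089.7 and 3497 FPKM (LPS) under the knockout label. Trim21, an antibody receptor and ubiquitin ligase inside the cell, rose from 9.52, 8.6 and 10.5 to 42.2 and 36.7 FPKM and from 9.21, 10.9 and 8.19 to 35.1, 29.4 and 46.7 FPKM. Sp100, a nuclear body protein, rose from 64.5, 69.5 and 74.9 to 242 and 248 FPKM and from 80.3, 71.6 and 48.5 to 209, 195 and 232 FPKM. Tor3a (an ATPase of the torsin family) had the second smallest rise after Ifi203, at 53.4, 49.7 and 66 FPKM with vehicle and 112 and 107 FPKM with LPS (0.95, adjusted p = 9.4e-05) and at 47.2, 46.2 and 52.1 FPKM (vehicle) and 107, 82.3 and 150.4 FPKM (LPS) under the knockout label. Stat2, the ISGF3 subunit on the list, went from 11.9, 10.8 and 15.1 to 73.7 and 75.7 FPKM (2.49, SE 0.26) and from 12.2, 11.5 and 9.82 to 51.4, 56.6 and 73.6 FPKM (2.33), with the groups clear of each other.

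Adding Dex to LPS lowered the list. All 37 genes fell in LPS + Dex against LPS in both genotypes, where 17.5% (wild-type) and 18.4% (labelled AMPKa1-/-) of all genes tested fell, with median changes of −3.45 and −3.71 against −0.03 and 0.01 over all genes. Without Ifi205 the counts were 36 of 36 in both, with medians of −3.33 and −3.83. The mean with LPS was a median 10.6 times that with LPS + Dex in wild-type cells and 16.1 times under the knockout label. By role, the median fall in wild-type cells was 5.87 for the IFIT family, 5.18 for the ISG15 system, 4.26 for the OAS family, 3.45 for the other effectors, 2.99 for the sensors and 2.53 for Stat2, Parp9 and Parp14. Each LPS + Dex library lay below each LPS library for all 37 genes in both genotypes (share of all genes not counted). The same 37 calls were made in each genotype when any 1 library was left out.

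Ifit2, Ifit3, Mx1 and Rsad2 had the 4 largest falls in wild-type cells, and Ifit3, Usp18 and Oasl2 the 3 largest under the knockout label. Ifit2 was at 2.77, 2.04 and 1.74 FPKM with LPS + Dex in wild-type cells (−6.25, SE 0.58, adjusted p = 1.6e-09) and at 1.34, 2.19 and 0.528 FPKM under the knockout label (−5.99). Ifit3 was at 1.67, 1.25 and 2.1 FPKM (−6.12) and at 0.739, 0.468 and 0.279 FPKM (−6.78, SE 0.45, adjusted p = 1.4e-12). Mx1 was at 1.79, 1.41 and 0.974 FPKM (wild-type) and at 0.409, 0.419 and 0.264 FPKM (AMPKa1-/-). These 3 genes thus had LPS levels of 54.4 FPKM or more in every library and ended at or below 2.77 FPKM. Usp18 ended at 6.74, 3.62 and 10.7 FPKM in wild-type cells (−5.8) and 3.78, 2.58 and 1.96 FPKM under the knockout label (−6.62), and Oasl2 at 8.87, 4.54 and 16 (−5.66) and 5.68, 4.3 and 2.41 FPKM (−6.31). Rsad2 was left at 1.67, 1.03 and 0.889 FPKM (wild-type) and 0.346, 0.642 and 0.194 FPKM (AMPKa1-/-), and Cmpk2 at 2.61, 2.04 and 0.928 FPKM (wild-type) and 0.92, 1.04 and 0.288 FPKM (AMPKa1-/-).

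The sensors Ifih1, Ddx58, Ifi204 and Ifi205 and the signalling factor Stat2 ended without a called difference from vehicle. Ifih1 was at 22, 14 and 12 FPKM with LPS + Dex in wild-type cells and 11.3, 13.7 and 9.73 FPKM under the knockout label, and Ddx58 was at 46, 33 and 36.5 FPKM (wild-type) and 34.3, 37.6 and 18.5 FPKM (AMPKa1-/-). Stat2 was at 14, 10.5 and 11.9 FPKM (−2.53 against LPS, SE 0.26) and at 8.72, 10.1 and 6.79 FPKM (−2.69). Ifi204 was at 14, 13.9 and 16.2 FPKM (wild-type) and 9.07, 10.3 and 7.45 FPKM (AMPKa1-/-). Ifi205 was at 0.261, 0.2 and 0.125 FPKM in wild-type cells and listed at 0, 0.067 and 0 FPKM under the knockout label, the level of about 1 fragment.

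The smallest falls were those of Ifi35 (a partner of the transcriptional regulator NMI) and Bst2 in wild-type cells, and of Trim21, Ifi35 and Ifi203 under the knockout label. Ifi35 went from 80.1 and 81.5 FPKM with LPS to 22.3, 29.2 and 37.5 FPKM with LPS + Dex in wild-type cells (−1.45, SE 0.30, adjusted p = 0.00036), and from 96.3, 73.1 and 112 to 24.5, 22.6 and 30.6 FPKM under the knockout label. Bst2 remained at 896, 866 and 1498 FPKM in wild-type cells (−1.7) and at 878, 775 and 766 FPKM under the knockout label (−2.0). Trim21 went down to 14.1, 8.76 and 9.42 FPKM (−1.81) and 10.8, 11.5 and 7.9 FPKM (−1.77), and Ifi203 to 31.2, 24.7 and 22 FPKM (wild-type) and 18.9, 20.4 and 12.7 FPKM (AMPKa1-/-), a fall under the knockout label of 1.88.

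**Figure D2:**
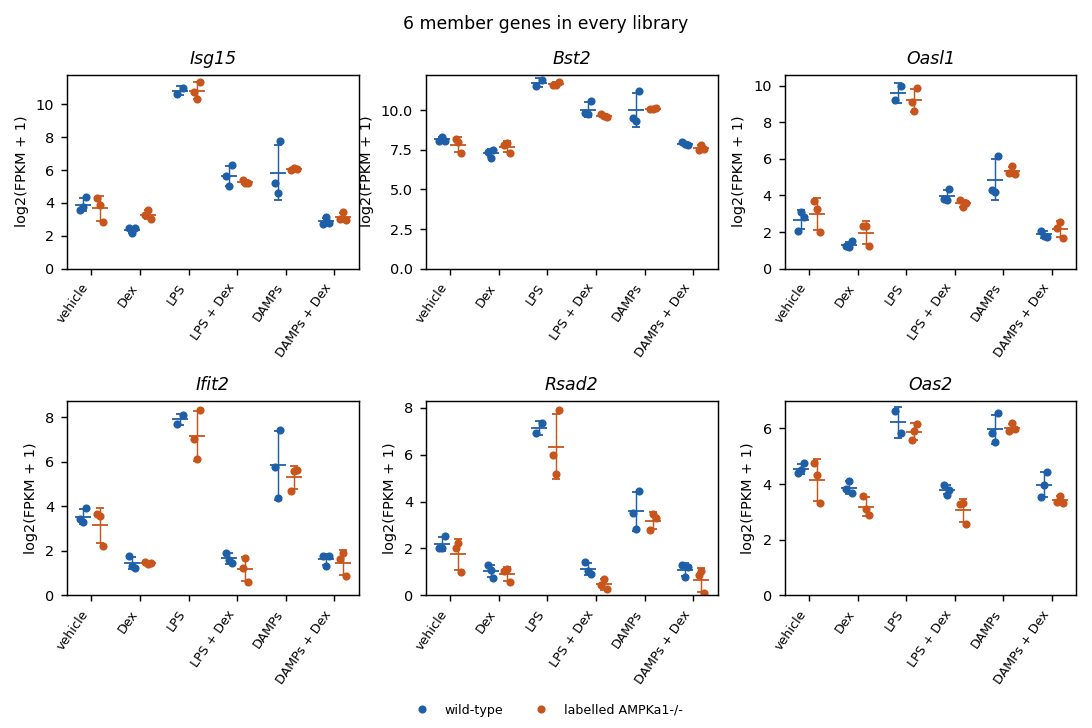
FPKM of 6 genes in each library on a log2(FPKM + 1) axis, by treatment, with wild-type and AMPKa1-/- labelled libraries as separate points and the mean ± SD of each group. Isg15, Bst2 and Oasl1 stay higher with LPS + Dex than with Dex, while Ifit2, Rsad2 and Oas2 lie at or near the Dex level, and replicate 3 is the highest wild-type DAMPs point in each panel.

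LPS + Dex was also set against vehicle. In wild-type cells 7 genes were higher than with vehicle and 10 lower, against 17.2% and 37.0% of all genes tested, and under the label AMPKa1-/- 4 were higher and 15 lower, against 16.7% and 40.8%. Each of these counts is near or below its background share, and the median of the list (−0.25 and −0.44) is near that of all genes (−0.23 and −0.28). When libraries were centred on a common median the counts were 9 higher and 7 lower in wild-type cells, against 25.5% and 25.1% of all genes, and 5 higher and 11 lower under the knockout label, against 27.0% and 26.0%. With quantile normalization they were 9 and 7, against 25.9% and 26.0%, and 6 and 11, against 26.3% and 26.6%. With 1 library left out, the counts in wild-type cells ran from 12 (4 higher and 8 lower, without vehicle replicate 1) to 17, and were 6 and 7 without vehicle replicate 3. Under the knockout label they ran from 14 (3 and 11, without vehicle replicate 2) to 20 (2 and 18, without vehicle replicate 3). Across genotypes 4 genes were called higher in both, 10 lower in both, 3 higher in wild-type cells alone and 5 lower under the knockout label alone, and 15 were called in neither. No gene was called in opposite directions. Whether the change of a gene called in 1 genotype alone differed between genotypes was not tested for this comparison.

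The genes that stayed above vehicle were Bst2, Isg15, Ifi35 and Dhx58 in both genotypes, and Isg20, Oasl1 and Zbp1 in wild-type cells. For Bst2 the LPS + Dex libraries named above lay above all vehicle libraries (1.89, SE 0.31, adjusted p = 7.1e-06 in wild-type cells, and 1.83, adjusted p = 1e-05 under the knockout label). Isg15 was at 48.1, 31.5 and 76.7 FPKM with LPS + Dex in wild-type cells (1.75 against vehicle, adjusted p = 0.0028) and at 41, 36.3 and 35.7 FPKM under the knockout label (1.6). Dhx58 was at 45, 32.5 and 47.9 FPKM (0.90) and 30.9, 35.6 and 24.7 FPKM (0.66). Ifi35 was higher by 1.19 and 1.01. Apart from Dhx58 under the knockout label, the LPS + Dex libraries of these 4 genes lay above the vehicle range. In wild-type cells Oasl1 was at 13.2, 12.4 and 19.7 FPKM (1.31, adjusted p = 0.0124), Zbp1 at 12.2, 8.14 and 18.5 FPKM (0.83, adjusted p = 0.0482) and Isg20 at 8.13, 7.25 and 10.8 FPKM (1.36). These were not called in AMPKa1-/- labelled cells, where Oasl1 was at 12.3, 9.44 and 11.2 FPKM (0.59), Zbp1 at 8.25, 8.96 and 5.37 FPKM (0.47) and Isg20 at 11.2, 7.26 and 5.35 FPKM (1.03, adjusted p = 0.0502).

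The genes that ended below vehicle in both genotypes were Ifit2, Ifit3, Ifit3b, Oas2, Oasl2, Mx1, Rsad2, Ifi44, Ifi203 and Tor3a. Fewer genes were lower with libraries centred on a common median or with quantile normalization. Some calls named in this paragraph were thus lost there, and which ones is not given here. The median change of all genes was −0.23 in wild-type cells and −0.28 under the knockout label. Ifit3 was lower by 2.2 in wild-type cells (SE 0.45, adjusted p = 0.00018) and by 2.38 under the knockout label, Ifit2 by 1.89 and 1.97, and Oasl2 by 1.66 and 2.47. Tor3a, at 24.6, 23.1 and 24.3 FPKM in wild-type cells and 19.5, 20.2 and 21.1 FPKM under the knockout label, had the smallest SE of the list and differed by −1.19 (adjusted p = 9.5e-07) and −1.22. In AMPKa1-/- labelled cells Usp18, Cmpk2, Eif2ak2 (PKR, which shuts off translation), Sp100 and Parp14 were also lower, by 1.22, 1.32, 0.72, 0.44 and 0.77. Sp100 was there at 54.1, 54.2 and 37.5 FPKM, against 57.1, 56.8 and 49.9 FPKM in wild-type cells. Members of 1 family parted here: Oasl1 ended above vehicle in wild-type cells and Oasl2 below, and Ifit1, at 6.21, 2.58 and 7.28 FPKM (wild-type) and 3.2, 2.85 and 1.83 FPKM (AMPKa1-/-), differed from vehicle by 0.11 and −0.20 (neither called) while Ifit2 and Ifit3 were lower. Oas3, at 10.8, 8.88 and 10.9 FPKM (wild-type) and 12.4, 9.37 and 5.6 FPKM (AMPKa1-/-), was not called either.

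**Figure D3:**
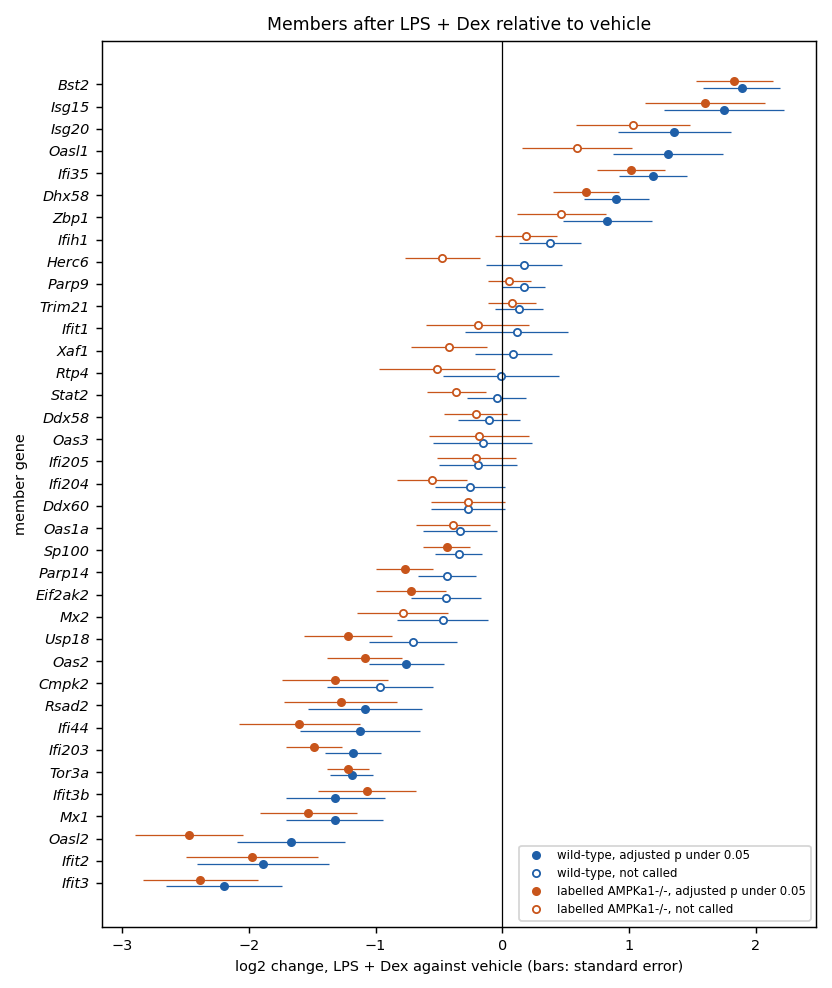
Log2 change ± SE of each of the 37 genes in LPS + Dex against vehicle, for wild-type cells and for cells labelled AMPKa1-/-, with filled points for genes called at an adjusted p under 0.05. Bst2 and Isg15 lie at the top with changes of about 1.6 to 1.9, and Ifit3, Ifit2 and Oasl2 at the bottom with changes beyond −1.6.

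Since Dex alone also moved the list, LPS + Dex was compared with Dex. In wild-type cells 13 genes were higher and 1 lower with LPS + Dex, against 20.2% and 46.1% of all genes, and under the knockout label 9 were higher and 2 lower, against 18.8% and 39.1%. The median of the list was 0.30 and 0.12, and that of all genes −0.31 and −0.23. With libraries centred on a common median the counts were 18 and 0 in wild-type cells, against 30.6% and 30.7% of all genes, and 13 and 1 under the knockout label, against 26.1% and 28.7%. With 1 library left out, 11 to 15 genes were called in wild-type cells and 8 to 13 under the knockout label. The largest differences were those of Isg15 (3.27 in wild-type cells, SE 0.47, adjusted p = 1.2e-06, and 1.99 under the knockout label), Bst2 (2.74 and 1.97) and Oasl1 (2.67 and 1.61). Ifit1 (2.1 and 1.22), Dhx58 (1.65 and 1.28), Ifi35, Oas3 and Trim21 were higher in both. Rtp4, Isg20, Zbp1, Xaf1 and Parp9 were called in wild-type cells alone and Ddx60 under the knockout label alone. Ifi203 was lower in both (−0.73 and −1.32), and Tor3a under the knockout label (−0.47). Ifit2, Ifit3, Mx1, Rsad2, Cmpk2 and Oas2 differed by between −0.08 and 0.49 in wild-type cells, with none called. This comparison shares its LPS + Dex libraries with that against vehicle.

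Dex alone lowered part of the list below its resting level. In wild-type cells 18 of 37 genes fell, against 14.9% of all genes tested, and under the label AMPKa1-/- 16 fell, against 16.0%, while none rose. The median change was −0.77 and −0.74, and the mean with vehicle was a median 1.85 and 1.78 times that with Dex. All Dex libraries lay below all vehicle libraries for 27 genes in wild-type cells and 18 under the knockout label (share of all genes not counted). All 4 IFIT genes fell in both genotypes. Ifit3 went from 7.7, 12.2 and 14.5 to 1.19, 1.08 and 0.485 FPKM in wild-type cells (−2.68, SE 0.45, adjusted p = 4.8e-05) and to 0.983, 2.0 and 0.647 FPKM under the knockout label (−1.85, adjusted p = 0.00267). Ifit1 was at 0.732, 0.142 and 0.359 FPKM (wild-type) and 0.665, 0.728 and 0.266 FPKM (AMPKa1-/-) with Dex, and Ifit2 at 2.42, 1.53 and 1.36 FPKM (wild-type) and 1.79, 1.65 and 1.71 FPKM (AMPKa1-/-). Ifit3b fell to 0.125, 0.054 and 0.079 FPKM (wild-type) and 0.076, 0.047 and 0.047 FPKM (AMPKa1-/-), the worth of a few fragments.

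Also lower in both genotypes were Mx1 (wild-type 1.4, 1.49 and 0.837 FPKM, AMPKa1-/- 1.37, 0.804 and 0.363 FPKM with Dex), Oasl2 (wild-type 6.05, 8.7 and 6.97 FPKM, AMPKa1-/- 11.3, 8.91 and 5.63 FPKM), Oas3 (wild-type 4.33, 5.36 and 4.43 FPKM, AMPKa1-/- 4.25, 4.85 and 3.51 FPKM), Ifi44, Rtp4, Xaf1 and Tor3a. Ifi44 (−2.16 and −1.8) and Rtp4 (−1.96 and −1.52) had some of the largest falls. Tor3a was at 27.8, 28.8 and 32.8 FPKM (wild-type) and 29.8, 27 and 28.8 FPKM (AMPKa1-/-). Isg15 was called lower in wild-type cells, at 4.65, 3.43 and 4.55 FPKM (−1.52, adjusted p = 0.0159), and not under the knockout label, at 8.74, 10.7 and 7.04 FPKM (−0.39). The calls were the same for Bst2, at 167, 127 and 180.2 FPKM and 227, 243 and 155 FPKM, for Usp18, at 7.23, 4.7 and 4.66 FPKM (wild-type) and 4.33, 5.97 and 2.98 FPKM (AMPKa1-/-), and for Oasl1, at 1.37, 1.27 and 1.83 FPKM (wild-type) and 3.95, 4.13 and 1.35 FPKM (AMPKa1-/-). Rsad2 (wild-type 1.46, 1.1 and 0.681 FPKM, AMPKa1-/- 1.03, 1.18 and 0.471 FPKM), Dhx58 (wild-type 10.6, 13.3 and 13.6 FPKM, AMPKa1-/- 11.9, 12.3 and 11.1 FPKM) and Oas1a were likewise called in wild-type cells and not under the knockout label. The test of the difference between genotypes in the Dex response called none of these genes.

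Called lower with Dex under the knockout label and not in wild-type cells were Ddx60, Eif2ak2, Oas2, Parp14 and Trim21 (6.15, 4.78 and 6.85 FPKM, against 7.41, 7.54 and 7.16 FPKM in wild-type cells). Not called in either genotype were Cmpk2 (wild-type 2.0, 2.58 and 1.31 FPKM, AMPKa1-/- 1.94, 1.12 and 1.19 FPKM), Zbp1 (wild-type 4.11, 3.3 and 2.97 FPKM, AMPKa1-/- 4.38, 4.65 and 3.44 FPKM), Ddx58 (wild-type 32.5, 29.6 and 26.1 FPKM, AMPKa1-/- 23.7, 24.3 and 25.2 FPKM), Stat2 (wild-type 11.3, 12.4 and 9.99 FPKM, AMPKa1-/- 9.58, 7.75 and 8.79 FPKM), Mx2, Isg20, Parp9, Ifi35 and Ifi203. Ifi204 (wild-type 17.6, 15.6 and 14.8 FPKM, AMPKa1-/- 12.5, 16.6 and 11.6 FPKM), Sp100 (wild-type 61.8, 68.9 and 60.2 FPKM, AMPKa1-/- 63, 55.4 and 53.6 FPKM), Ifih1 (wild-type 13.8, 13.6 and 10.8 FPKM, AMPKa1-/- 9.46, 9.55 and 10.2 FPKM) and Herc6 were not called either. Ifi205 lay above vehicle without a call, at 1.26, 0.773 and 0.325 FPKM (wild-type) and 0.248, 0.753 and 0.327 FPKM (AMPKa1-/-), changes of 0.35 and 0.28. The counts depend on single libraries: in wild-type cells 9 genes were called without vehicle replicate 3 and 10 without Dex replicate 2, and under the knockout label 7 without vehicle replicate 1, 5 without vehicle replicate 2, 9 without Dex replicate 2 and 10 without Dex replicate 3. Without any filter on low values 11 were called in wild-type cells.

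DAMPs raised most of the list while few genes changed outside it. Of the 37 genes 27 rose in wild-type cells, against 1.22% of all genes tested, and 32 under the label AMPKa1-/-, against 1.89%, with median changes of 1.39 and 1.59 and none lower. The mean with DAMPs was a median 3.39 and 3.55 times that with vehicle. All 37 changes were above 0 in both genotypes. All DAMPs libraries lay above all vehicle libraries for 31 genes in wild-type cells and 35 under the knockout label (share of all genes not counted). The wild-type count rests on DAMPs replicate 3: without it 3 genes were called, while 14 were called without vehicle replicate 1. With only the wild-type DAMPs and vehicle libraries in the fit, limma called 0 of 37, against 1 of 11269 genes tested there. An unadjusted p under 0.05 was found for 34 of the 37, against 901 of those 11269 genes. Under the knockout label 24 to 31 genes were called when any 1 library was left out.

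Ifit3 had the largest change with DAMPs in wild-type cells, from 7.7, 12.2 and 14.5 FPKM to 55.2, 29.6 and 181 FPKM (2.49, SE 0.45, adjusted p = 0.00418), and went from 12.2, 9.67 and 2.29 to 51.5, 63.9 and 57.7 FPKM under the knockout label (2.92). Ifit1 was at 17.9, 9.14 and 48.3 FPKM (wild-type) and 19.3, 25.3 and 24.7 FPKM (AMPKa1-/-) with DAMPs, and Ifit2 at 52.7, 19.5 and 169 FPKM (wild-type) and 25, 46.7 and 48.9 FPKM (AMPKa1-/-). In each of these the wild-type replicate 3 is several times the other wild-type libraries, and the knockout-labelled libraries lie within the wild-type range. Rtp4, a chaperone that carries receptors to the membrane, rose most under the knockout label (3.01, SE 0.46, adjusted p = 0.00027), from 29.4, 20.9 and 6.22 to 128, 135 and 142 FPKM, and in wild-type cells from 15, 18.9 and 26 to 80.9, 51.3 and 226 FPKM. Ifi44 had the third largest change under the knockout label (2.7) and Isg20 the second largest in wild-type cells (2.43).

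Isg15 was at 35.6, 22.9 and 213 FPKM with DAMPs in wild-type cells (1.95, adjusted p = 0.0267) and at 62.1, 70.1 and 64.5 FPKM under the knockout label (2.39). Usp18 was at 30.8, 19.8 and 67.9 FPKM (wild-type) and 30.6, 42.1 and 36 FPKM (AMPKa1-/-). Oas3 was at 37.6, 26.8 and 152 FPKM (wild-type) and 48.3, 80.8 and 61.8 FPKM (AMPKa1-/-), Oasl1 at 18.6, 17 and 69.2 FPKM (wild-type) and 36.3, 47.5 and 34.4 FPKM (AMPKa1-/-), and Oasl2 at 96.1, 71.2 and 312 FPKM (wild-type) and 153, 192 and 166 FPKM (AMPKa1-/-). In both genotypes these genes were called and their DAMPs libraries were above vehicle. Mx1 was at 14.9, 8.69 and 36.5 FPKM (wild-type) and 9.76, 16.3 and 14.3 FPKM (AMPKa1-/-), Zbp1 at 19.2, 10.7 and 63 FPKM (wild-type) and 22.5, 28.4 and 29.1 FPKM (AMPKa1-/-), and Bst2 at 734, 635 and 2407 FPKM (wild-type) and 1083, 1075 and 1127 FPKM (AMPKa1-/-). Ddx58 was at 92.3, 60.6 and 142 FPKM (wild-type) and 75.2, 99.7 and 107 FPKM (AMPKa1-/-), Dhx58 at 40.3, 35.3 and 111 FPKM (wild-type) and 51.8, 63.9 and 58.7 FPKM (AMPKa1-/-), and Stat2 at 19.8, 15.9 and 45.2 FPKM (wild-type) and 18.1, 28.4 and 24.6 FPKM (AMPKa1-/-). Ifi204 was at 37.6, 26.6 and 100.0 FPKM (wild-type) and 33.6, 44.3 and 49.2 FPKM (AMPKa1-/-) and Sp100 at 120.1, 95.9 and 211 FPKM (wild-type) and 138, 151 and 154 FPKM (AMPKa1-/-). All of these were called in both genotypes.

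Not called with DAMPs in either genotype were Rsad2 (wild-type 10.3, 6.04 and 21 FPKM, AMPKa1-/- 5.88, 10.1 and 8.96 FPKM), Trim21 (wild-type 14.5, 10.7 and 14.4 FPKM, AMPKa1-/- 9.78, 13.3 and 14.2 FPKM), Tor3a (wild-type 68.7, 61.3 and 115 FPKM, AMPKa1-/- 69.4, 74.4 and 70.2 FPKM), Ifi205 (wild-type 1.19, 1.17 and 3.35 FPKM, AMPKa1-/- 0.544, 1.81 and 1.84 FPKM) and Eif2ak2. Trim21 (0.42 and 0.36), Tor3a (0.48 and 0.55) and Eif2ak2 (0.68 and 0.76) were the 3 smallest changes. In wild-type cells Cmpk2 (9.28, 6.73 and 19.3 FPKM, 1.12), Ifih1 (23, 13.3 and 26.4 FPKM, 0.73), Ifi35, Oas1a and Parp14 were not called either. The same 5 were called under the knockout label, Cmpk2 at 7.93, 13 and 12 FPKM (1.46, adjusted p = 0.0418) and Ifih1 at 14.2, 22.8 and 25.3 FPKM (0.95). Rsad2 had changes of 1.39 (95% interval 0.47 to 2.31) and 1.45 (95% interval 0.53 to 2.37), neither of which passed the adjusted threshold.

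**Figure D4:**
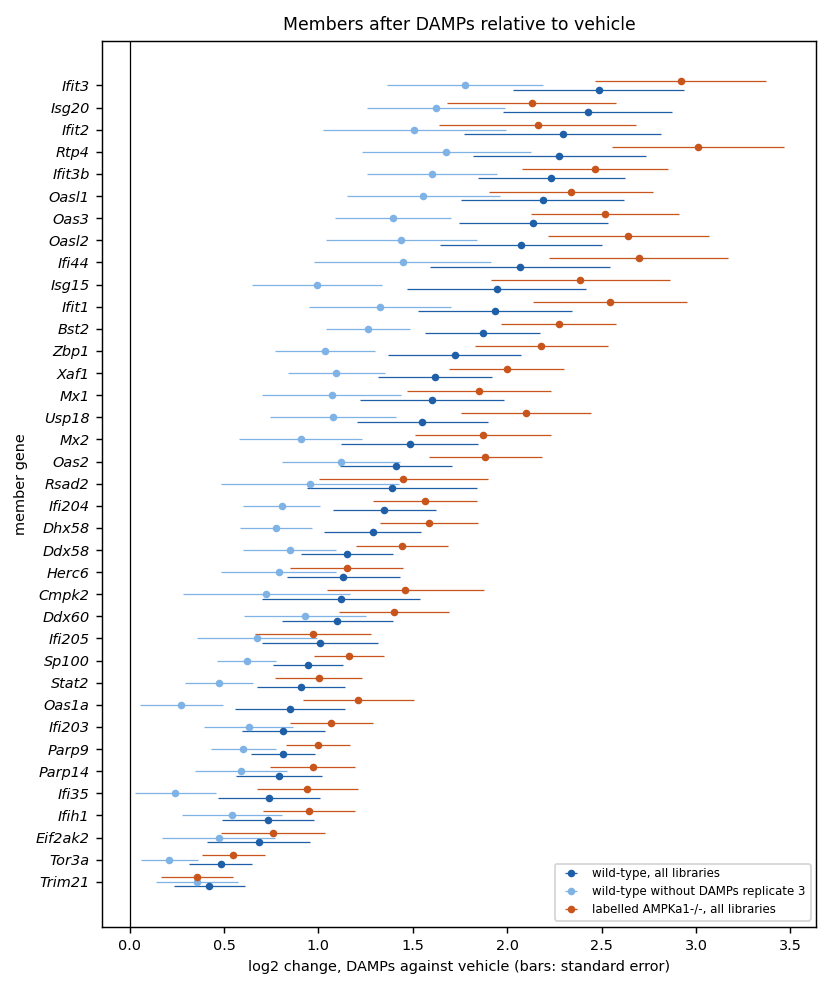
Log2 change ± SE of each of the 37 genes in DAMPs against vehicle, for wild-type cells, for wild-type cells without DAMPs replicate 3 and for cells labelled AMPKa1-/-. All points lie above 0, and the median of the list is 1.39 in wild-type cells, 0.93 without replicate 3 and 1.59 under the knockout label.

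Dex took the DAMPs response down as well. In DAMPs + Dex against DAMPs 35 of 37 genes fell in wild-type cells, against 12.6% of all genes tested, and 36 fell under the label AMPKa1-/-, against 12.2%. The median changes were −1.98 and −2.28. All DAMPs + Dex libraries lay below all DAMPs libraries for 35 and 36 genes (share of all genes not counted). With 1 library left out, 34 to 36 genes fell in wild-type cells and 35 to 37 under the knockout label. Ifit3 went to 1.89, 1.73 and 1.85 FPKM in wild-type cells (−4.59, SE 0.45, adjusted p = 9e-09) and 0.779, 1.52 and 0.641 FPKM under the knockout label (−4.91). Ifit2 (−4.22) and Ifi44 (−3.92) followed in wild-type cells, and Rtp4 (−4.65) and Ifi44 (−4.61) under the knockout label. Ifit2 was then at 2.36, 1.51 and 2.44 FPKM (wild-type) and 2.12, 2.77 and 0.808 FPKM (AMPKa1-/-) and Ifit1 at 0.783, 0.807 and 1.24 FPKM (wild-type) and 0.435, 0.618 and 0.155 FPKM (AMPKa1-/-).

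Isg15 was at 5.67, 7.75 and 5.75 FPKM (wild-type) and 7.03, 9.77 and 6.7 FPKM (AMPKa1-/-) with DAMPs + Dex (−2.96 and −2.93 against DAMPs), and Usp18 at 6.26, 5.2 and 4.14 FPKM (wild-type) and 3.31, 4.21 and 2.66 FPKM (AMPKa1-/-). Oasl1 was at 3.25, 2.5 and 2.37 FPKM (wild-type) and 3.75, 4.84 and 2.18 FPKM (AMPKa1-/-), Oasl2 at 7.89, 7.97 and 11.2 FPKM (wild-type) and 7.51, 9.18 and 5.94 FPKM (AMPKa1-/-), and Oas3 at 4.79, 6.13 and 7.32 FPKM (wild-type) and 4.8, 5.72 and 4.02 FPKM (AMPKa1-/-). None of these libraries overlapped those with DAMPs alone. Mx1 was at 1.67, 1.87 and 1.93 FPKM (wild-type) and 0.686, 1.28 and 0.55 FPKM (AMPKa1-/-), Rsad2 at 1.47, 0.721 and 1.31 FPKM (wild-type) and 0.81, 1.08 and 0.063 FPKM (AMPKa1-/-), and Cmpk2 at 2.33, 1.95 and 2.18 FPKM (wild-type) and 1.82, 2.03 and 0.829 FPKM (AMPKa1-/-). For each of these 3 genes the highest library with DAMPs + Dex lay below the lowest with DAMPs. Ifih1 was at 13.2, 9.2 and 13.3 FPKM (wild-type) and 12.8, 10.9 and 9.39 FPKM (AMPKa1-/-), Ddx58 at 30.8, 25.1 and 29.5 FPKM (wild-type) and 30.3, 26.4 and 23.4 FPKM (AMPKa1-/-), and Dhx58 at 12.2, 13.6 and 14.6 FPKM (wild-type) and 11.2, 10.6 and 11.5 FPKM (AMPKa1-/-). Zbp1 was at 4.25, 3.54 and 4.09 FPKM (wild-type) and 3.62, 3.83 and 3.02 FPKM (AMPKa1-/-), Stat2 at 9.55, 9.62 and 12 FPKM (wild-type) and 10.3, 9.34 and 9.26 FPKM (AMPKa1-/-), and Bst2 at 256, 234 and 220.0 FPKM (wild-type) and 182, 227 and 187 FPKM (AMPKa1-/-). All of these genes fell in both genotypes.

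With DAMPs + Dex, Ifi204 was at 15, 14.9 and 16 FPKM (wild-type) and 13, 12.4 and 12.1 FPKM (AMPKa1-/-). Trim21 was at 7.96, 4.85 and 7.55 FPKM (wild-type) and 7.25, 6.06 and 7.26 FPKM (AMPKa1-/-). Sp100 was at 58.7, 60.4 and 64.1 FPKM (wild-type) and 59.5, 61 and 58.4 FPKM (AMPKa1-/-). Tor3a was at 32.4, 27.7 and 29.5 FPKM (wild-type) and 27.3, 26.2 and 30.2 FPKM (AMPKa1-/-). These 4 fell in both genotypes. Ifi205 did not pass the test in either, at 1.15, 0.387 and 0.755 FPKM (wild-type) and 0.32, 0.878 and 0.145 FPKM (AMPKa1-/-), changes of −0.66 and −0.71. Ifi35 was not called in wild-type cells (−0.54, adjusted p = 0.154) and fell under the knockout label (−1.13). Ifih1 was among the 3 smallest changes in wild-type cells (−0.73), as were Trim21 and Ifih1 (−0.76 and −0.82) under the knockout label.

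The comparisons of DAMPs + Dex with Dex and of LPS with DAMPs were chosen once values had already been seen. Between DAMPs + Dex and Dex no member was called in either genotype, against 0.520% and 0.211% of all genes tested in either direction. The median difference was 0.10 and −0.02, and no member had an unadjusted p under 0.05, while 2445 and 752 of all genes did. Ifit2 had the widest 95% interval of the 37, −0.90 to 1.24 in wild-type cells and −1.04 to 1.1 under the knockout label. LPS was higher than DAMPs for 33 genes in wild-type cells, against 20.7% of all genes, and for 34 under the knockout label, against 22.0%. With 1 library left out, 31 to 35 genes were called in either genotype. The median of the list was 1.93 and 1.61, and that of all genes −0.155 and −0.22. The mean with LPS was a median 3.26 and 3.06 times that with DAMPs. Ifi205, which passed the minimum only through the LPS libraries, was among the genes called in both. Without Ifi205 the counts were 32 and 33 of 36, with medians of 1.92 and 1.58. Isg15 (4.98 and 4.75), Oasl1 (4.73 and 3.87) and Isg20 (4.33 and 4.34) differed most. At the other end Ifi203 was at 111, 77.4 and 136 FPKM with DAMPs in wild-type cells and was not called (−0.18), and at 86.5, 109 and 122 FPKM under the knockout label, where it was lower with LPS (−0.67, adjusted p = 0.0098), against 39.3% of all genes that were lower. Oas2 was at 55.8, 44.4 and 92.4 FPKM with DAMPs in wild-type cells and 58.6, 72 and 62.5 FPKM under the knockout label (0.26 and −0.15, neither called). Rtp4 was not called in either genotype (0.82 and 0.43), nor was Ifit3b in wild-type cells (0.58).

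Whether the AMPKa1-/- label changed the list was tested within each treatment. No member was called with vehicle (0.432% of all genes were called in either direction), LPS (0.766%), LPS + Dex (0.669%), DAMPs (0.731%) or DAMPs + Dex (1.06%) in limma. At an unadjusted p under 0.05 the counts were 0, 0, 9, 0 and 0 of 37 genes. Of all 11354 genes tested, 700, 1300, 921, 860 and 1067 passed that threshold in the same order. With Dex, where 26.5% of all genes were called, 1 member was: Herc6, at 8.93, 10.5 and 7.85 FPKM in wild-type cells and 5.38, 3.25 and 3.74 FPKM under the knockout label (−0.99, SE 0.30, adjusted p = 0.0205). It lost that call without wild-type Dex replicate 2 or Dex replicate 2 labelled AMPKa1-/-. With the 2 Dex groups alone in the fit, 5 members were called, 1 higher and 4 lower, against 26.7% of all genes tested in that fit.

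With LPS + Dex all 37 genes were lower under the knockout label than in wild-type cells, with a median difference of −0.45 against −0.04 for all genes, and none was called. Same-numbered libraries deviated together here, and with the replicate number as a block 0 were again called by limma, and 8 had an unadjusted p under 0.05. Without the block, 9 members and 921 of all 11354 genes had such a p in limma. The differences ran from −1.11 (Ifi44) to −0.07 (Trim21). Within the AMPKa1-/- labelled group, replicate 3 was above the group's mean for 5 genes, and replicates 1 and 2 for 29 and 27. Usp18 had the smallest p, at 6.74, 3.62 and 10.7 FPKM in wild-type cells and 3.78, 2.58 and 1.96 FPKM under the knockout label (−1.02, 95% interval −1.72 to −0.31, adjusted p = 0.265), groups that overlap at a single pair of libraries. Oasl2 differed by −0.98, Mx1 by −0.80 and Bst2 by −0.39. The genes share their libraries, so the common direction is 1 observation and not 37. The response itself was compared between genotypes in 4 interaction tests (LPS against vehicle, LPS + Dex against LPS, Dex against vehicle, DAMPs against vehicle). In limma 0% of all genes, and no member, was called in any of them. At an unadjusted p under 0.05 there were 0 members in each, and 514, 311, 2441 and 66 genes. For Isg15 the difference between genotypes in the LPS response was 0.21 with a 95% interval of −1.25 to 1.67, and in the DAMPs response 0.44 (−0.93 to 1.82). Differences inside these intervals are compatible with these libraries, so the absence of a call does not show equal responses.

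Around the listed genes, the components of the pathway were followed from ligand to feedback. Besides the shares of all genes already given, LPS lowered 35.8% (wild-type) and 44.1% (labelled AMPKa1-/-) of all genes tested, DAMPs 0.793% and 2.24%, while Dex raised 15.9% and 11.9%, LPS + Dex against LPS raised 16.6% and 19.3% and DAMPs + Dex against DAMPs raised 11.7% and 13.1%. Counts in these short lists are to be read against such shares. Interferon RNA was scarce: of 21 interferon genes none reached a mean of 1 FPKM, so none was tested. Ifnb1, the gene of interferon beta, was at 1.07 and 0.504 FPKM in the wild-type LPS libraries and 0, 0.316 and 0.469 FPKM in the LPS libraries under the knockout label. Ifng was the most abundant of the 21 there, at 1.17 and 1.32 FPKM (wild-type) and 0.528, 1.18 and 0.667 FPKM (AMPKa1-/-). Ifnb1 was listed at 0 in all vehicle, Dex, LPS + Dex and DAMPs + Dex libraries, and with DAMPs at 0, 0 and 0.049 FPKM (wild-type) and 0.074, 0 and 0 FPKM (AMPKa1-/-), where a value above 0 is about 1 fragment. The summed FPKM of the 21 genes was 1.83 and 2.64 in the wild-type LPS libraries and 0.641 to 1.49 in the LPS libraries under the knockout label, and at most 0.234 in any other library. With 1 time point at 24 h, earlier interferon RNA was not measured.

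Of 7 transcription factor genes of the IRF family (Irf9, Irf1, Irf2, Irf3, Irf5, Irf7 and Irf8), LPS raised Irf9 and Irf7 and lowered Irf2 and Irf8 in both genotypes, and DAMPs raised the same pair and lowered none. Irf7, the factor that amplifies the response, had 66.7, 115 and 87.1 FPKM with vehicle, 478, 368 and 1586 FPKM with DAMPs and 1715 and 2334 FPKM with LPS in wild-type cells, changes of 2.89 (adjusted p = 0.0015) and 4.5 (adjusted p = 3.1e-08). In AMPKa1-/- labelled cells Irf7 had 91.5, 98.6 and 26.7, then 752, 933 and 891 FPKM (DAMPs) and 1929.6, 1732 and 2576 FPKM (LPS). As in the list, wild-type DAMPs replicate 3 was the highest of its group. With LPS + Dex, Irf7 was at 85.5, 54.3 and 157 FPKM (wild-type) and 71.9, 62.2 and 35.5 FPKM (AMPKa1-/-) without a called difference from vehicle, and with DAMPs + Dex at 61.9, 53.6 and 42.1 FPKM (wild-type) and 35.2, 51.8 and 25.7 FPKM (AMPKa1-/-). Irf9, the DNA-binding subunit of ISGF3, was at 30.8, 33.2 and 35.2 FPKM with vehicle, then 75.8 and 59.6 FPKM (LPS) and 26.2, 19.1 and 24.4 FPKM (LPS + Dex) in wild-type cells, and ended below vehicle (−0.50, adjusted p = 0.00473). LPS + Dex against LPS lowered 5 of the 7 and raised Irf2 in both genotypes, and DAMPs + Dex against DAMPs lowered Irf9, Irf1 and Irf7 and raised Irf2.

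Among 8 tested genes of receptors and JAK kinases, LPS raised Ifnar2, Ifngr2, Jak2 and Tyk2 and lowered Ifngr1 and Il10rb in both genotypes, and DAMPs changed none. Ifngr1, the ligand-binding chain of the interferon gamma receptor, went the opposite way from the list: it was at 338, 353 and 278 FPKM with vehicle, 1299.6, 1231 and 1332 FPKM with Dex, 57.2 and 52.6 FPKM with LPS and 337, 411 and 255 FPKM with LPS + Dex in wild-type cells. The changes were 2.0 for Dex (adjusted p = 1.9e-12), −2.53 for LPS (adjusted p = 1.6e-14) and 2.56 for LPS + Dex against LPS, and under the knockout label 2.15, −2.46 and 2.33. Ifnar1, a chain of the type I receptor, was lower with Dex in both genotypes, at 114, 113 and 122 FPKM with vehicle and 69.1, 81 and 63.2 FPKM with Dex in wild-type cells.

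Of 8 negative regulators (Socs1, Socs3, Ptpn1, Ptpn2, Ptpn6, Ptpn11, Pias1 and Pias4), LPS raised 5 in wild-type cells and 6 under the knockout label and lowered Pias1, and LPS + Dex was above vehicle for Socs1, Socs3, Ptpn1, Ptpn6 and Ptpn11 in both, with Ptpn2 lower under the knockout label. Socs1, which blocks JAK kinases, was at 0.178, 0.195 and 0.205 FPKM with vehicle, 136 and 147 FPKM with LPS and 22.1, 13.2 and 33.3 FPKM with LPS + Dex in wild-type cells (4.23 against vehicle, adjusted p = 5.6e-15). Socs3, the inhibitor of cytokine receptors that signal through STAT3, was at 4.46, 3.04 and 7.54, then 858 and 1157 FPKM (LPS) and 372, 384 and 374 FPKM (LPS + Dex) (6.04 against vehicle). Under the knockout label Socs1 was at 9.71, 12.1 and 15.1 FPKM and Socs3 at 290.0, 328 and 341 FPKM with LPS + Dex, far above vehicle. DAMPs changed none of the 8, with Socs1 at 0.43, 0.316 and 1.54 FPKM (wild-type) and 0.818, 1.14 and 0.771 FPKM (AMPKa1-/-). Of 12 genes of the sensing arm upstream of interferon, LPS raised 6 and lowered 1 in wild-type cells and raised 4 and lowered 2 under the knockout label, and DAMPs raised Ikbke alone, a kinase that acts on IRF3 and IRF7 (0.60 and 0.55). Ikbke was at 61.6, 56.6 and 58.6 FPKM with vehicle, 255 and 202 FPKM with LPS and 280.4, 277 and 207 FPKM with LPS + Dex in wild-type cells, and LPS + Dex against LPS was not called (95% interval −0.20 to 0.50 in wild-type cells and −0.26 to 0.37 under the knockout label).

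**Figure D5:**
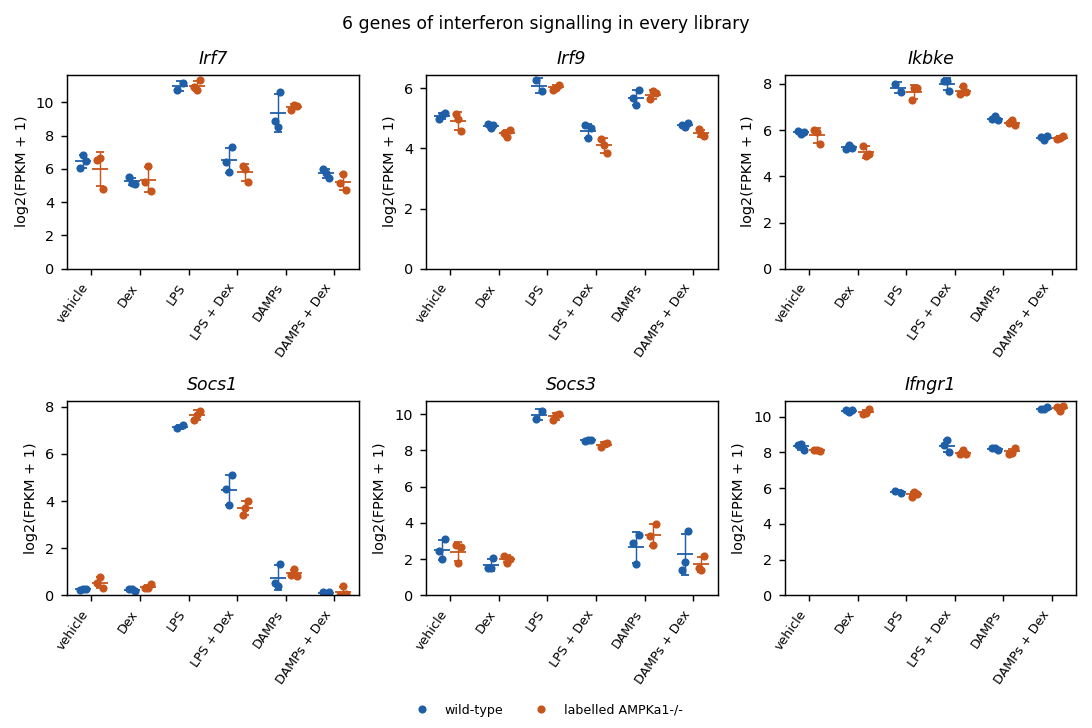
FPKM of 6 other genes of the pathway in each library on a log2(FPKM + 1) axis, by treatment, with wild-type and AMPKa1-/- labelled libraries as separate points and the mean ± SD of each group. Irf7 and Irf9 follow the listed antiviral genes with LPS and DAMPs, the LPS and LPS + Dex libraries of Ikbke overlap, Socs1 and Socs3 stay far above vehicle with LPS + Dex, and Ifngr1 is high with Dex and low with LPS.

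Genes outside the pathway place these changes among those of the same libraries. The glucocorticoid-induced list (Tsc22d3, Fkbp5, Per1, Dusp1, Zbtb16, Sgk1, Klf9 and Ddit4) rose with Dex for 8 of 8 genes in both genotypes, with DAMPs + Dex against DAMPs for 7 in both, and with LPS + Dex against LPS for 7 in wild-type cells and 8 under the knockout label. Of 8 inflammatory genes (Il1b, Il6, Il12b, Nos2, Tnf, Ptgs2, Ccl5 and Cxcl10) 4 (Il6, Il12b, Nos2 and Ptgs2) reached the mean of 1 FPKM only through the LPS libraries and had to be high there, so only the other 4 were counted. LPS raised all 4 of these in both genotypes, LPS + Dex against LPS lowered 3, all but Ccl5, and LPS + Dex stayed above vehicle for 3. Of the 4 counted, DAMPs raised Ccl5 alone. Ccl5 went from 26.9, 21.4 and 20.9 to 109, 54.4 and 746 FPKM in wild-type cells (2.79, adjusted p = 0.0313). Under the knockout label it went from 10.4, 15.1 and 5.22 to 54.5, 58.6 and 74.3 FPKM. Cxcl10, itself known as an interferon-inducible chemokine, was at 1.26, 1.04 and 1.6 FPKM with vehicle, 1.9, 1.23 and 5.97 FPKM with DAMPs and 813 and 1302 FPKM with LPS in wild-type cells.

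Markers of other cells moved in some of the same comparisons, and their part in the results was not tested. The 10 neutrophil markers summed to a median of 75.8 FPKM with vehicle and 688 FPKM with LPS + Dex in wild-type cells, and to 74.1 and 376 FPKM under the knockout label. Most of the LPS + Dex sum was S100a8, at 617, 478 and 1147 FPKM (wild-type) and 307, 301 and 581 FPKM (AMPKa1-/-) with LPS + Dex, while Ly6g was at most 0.200 FPKM in any library. Of the 6 neutrophil markers tested, S100a8 and Camp were higher with LPS + Dex than with vehicle in both genotypes and Ltf and Csf3r lower. Camp went from 1.36, 0.157 and 0.396 to 34.8, 32.9 and 52.1 FPKM and from 2.25, 1.23 and 0.125 to 23.8, 24.1 and 36.9 FPKM, and was at 133 and 113 FPKM (wild-type) and 92.5, 96.5 and 117 FPKM (AMPKa1-/-) with LPS. The 6 markers of conventional dendritic cells summed to 38.7 and 112 FPKM in the wild-type LPS libraries and to under 2 FPKM in all libraries without LPS alone, nearly all from Ccr7, and Cd209a was under 0.1 FPKM everywhere. The 7 markers of plasmacytoid dendritic cells, known as strong sources of interferon, were led by Tcf4 in every library, with Siglech, Klk1 and Cd209d under 0.1 FPKM everywhere and Ccr9 and Ly6d at most 0.328 and 0.190 FPKM. Cox6a2, the other marker of that list, was at 6.4, 9.71 and 7.0 FPKM with vehicle, 3.11 and 2.9 FPKM with LPS and 1.2, 3.04 and 2.69 FPKM with LPS + Dex in wild-type cells. The sum of the 7 had a median of 62.2 FPKM with vehicle, 61.1 FPKM with LPS, 22.4 FPKM with LPS + Dex, 94.8 FPKM with Dex, 56.0 FPKM with DAMPs and 60.6 FPKM with DAMPs + Dex in wild-type cells, and of 53.5, 46.7, 15.5, 52.5, 52.6 and 56.1 FPKM in the same order under the knockout label. The sum was thus lowest with LPS + Dex, where Tcf4 was called lower than with LPS in both genotypes. The T cell list came to Cd4, at 17.9, 15.9 and 15.6 FPKM with vehicle, 35, 22.7 and 29 FPKM with DAMPs and 1.18 and 0.735 FPKM with LPS in wild-type cells, with Cd3e and Cd8a under 0.1 FPKM everywhere. The fibroblast list summed to 1.16 to 24.7 FPKM over all libraries, the NK cell list to at most 0.329, the B cell list to at most 3.19 and the erythroid list to at most 0.175 FPKM. Single macrophage markers moved as well. LPS against vehicle raised Adgre1, Fcgr1 and Cd14 and lowered Csf1r, Cd68, Mertk and Lyz2 in both genotypes, and LPS + Dex against LPS raised Csf1r, Mertk and Lyz2 and lowered Fcgr1 and Cd14. Dex against vehicle raised Mertk and lowered Cd68, Itgam and Fcgr1 in both, and DAMPs + Dex against DAMPs raised Mertk and lowered Itgam and Fcgr1 in both, together with Adgre1 in wild-type cells and Cd68 and Cd14 under the knockout label. Fcgr1, an Fc receptor that is itself induced by interferon, was at 72.7, 103 and 66.2 FPKM with vehicle, 301 and 345 FPKM with LPS, 61.3, 99.6 and 52 FPKM with LPS + Dex, 101, 108 and 264 FPKM with DAMPs and 11.2, 8.85 and 6.46 FPKM with DAMPs + Dex in wild-type cells. Cd68 was at 1328, 1741 and 1498 FPKM with vehicle and 183, 265 and 291 FPKM with LPS + Dex there, and Adgre1 at 989, 1179.6 and 849 and 2745, 2751 and 1840.4 FPKM. DAMPs against vehicle changed 0 of the 8 in both genotypes.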

How the data were processed

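RNA-seq of 35 macrophage cultures was analysed. The deposited FPKM values were made by the authors from Illumina reads, and the submitters' processing notes name Bowtie2 2.2.3, TopHat2 2.0.12, HTSeq 0.6.1, DESeq2 (no version) and the builds GRCm38 and mm10, without saying which tool made which value. Neither the annotation nor the use of strand is stated there. Low values of single-transcript genes were whole multiples of 1 fragment in 93.1% to 94.8% of cases per library (within 0.001, under 10 fragments), which gave the depths.

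FPKM were joined over all libraries, gene symbols and positions were taken from GENCODE M21 (GRCm38), and 46574 of 47069 rows had a symbol. Genes with a mean of at least 1 FPKM over the 35 libraries (11354) were tested on log2(FPKM + 1) with limma 3.58.1 (R 4.3.3), with a trended prior, all 12 groups in 1 fit, two-sided tests and Benjamini-Hochberg adjustment over all tested genes at 0.05. Tables and figures were made with Python 3.11.15, pandas 2.3.3, numpy 2.4.6 and matplotlib 3.10.9. The members and gene lists were chosen with earlier results of these data known. Some genes of the lists are not reported here. Any of the 37 members could be named, 22 of them with the value in every library, and in each comparison the 3 largest and 3 smallest changes and members that were not called were added, as were tested genes of the other lists.

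Replicate numbers come from the sample titles, and what a number marks is not given. Same-numbered libraries deviated together (every r over 0.1, 3 pairs) under the label AMPKa1-/- for LPS and vehicle (r 0.124 to 0.316), LPS + Dex and LPS (0.356 to 0.375), Dex and vehicle (0.217 to 0.400) and LPS + Dex and vehicle (0.246 to 0.365), in wild-type cells for LPS + Dex and Dex (0.223 to 0.554), and between genotypes for LPS + Dex (0.119 to 0.515). Alternatives were a pseudocount of 0.1, no filter, centring on a common median, quantile normalization, a fit of only the groups compared, a replicate block and leaving out each library. No gene had the same value above 0, as deposited and before rounding, in any pair of libraries.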

Additional observations from a re-analysis of the deposited data

How the results depend on the processing

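The counts of members called with LPS against vehicle, with LPS + Dex against LPS and with DAMPs + Dex against DAMPs stayed within 1.5 times of those reported in every alternative run. Others moved. For Dex against vehicle in wild-type cells, 11 members were called with no filter on low values. For DAMPs against vehicle in wild-type cells, 0 were called by limma with only the groups compared in the fit, where 34 had an unadjusted p under 0.05. Of all 11269 genes tested in that fit, 1 was called and 901 had an unadjusted p under 0.05. Between genotypes with Dex, 5 were called with only the groups compared, where 26.7% of all genes were. Leaving out 1 library at a time gave 9 to 15 members for Dex against vehicle in wild-type cells and 5 to 20 under the label AMPKa1-/-, 3 (without wild-type DAMPs replicate 3) to 32 (without replicate 2) for DAMPs against vehicle in wild-type cells, and 0 to 1 between genotypes with Dex. Without one of the libraries Oas2 in LPS against DAMPs ran from −0.134 (without wild-type LPS replicate 2) to 0.647 in wild-type cells and from −0.289 to 0.007 (without LPS replicate 1) under the knockout label, where it was 0.065 with libraries centred. Ifi203 in LPS against DAMPs ran from −0.400 to 0.004 in wild-type cells, the latter without DAMPs replicate 3. Neither gene had been called there, apart from Ifi203 under the knockout label. The cause was not tested, beyond the smaller number of libraries in such fits. Of 441 called values of single members, 346 were called in every alternative, and 86 were lost when some library was left out, 40 with only the groups compared, 39 with no filter, 14 with centring, 13 with quantile normalization, 8 with the other pseudocount and 2 with the replicate block. FPKM and 2 or 3 libraries in a group limit what can be seen in weakly expressed members such as Ifi205 and Ifit3b, where a few fragments set the value.

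With the replicate number as a block, the counts of members called were 37 and 36 for LPS against vehicle (wild-type, then AMPKa1-/-), 37 and 37 for LPS + Dex against LPS, 17 and 17 for Dex against vehicle, 17 and 21 in the LPS + Dex comparison with vehicle, 15 and 13 for LPS + Dex against Dex, 27 and 32 for DAMPs against vehicle and 35 and 36 for DAMPs + Dex against DAMPs, and between genotypes 1 with Dex and 0 with each other treatment, and no count moved by over 1.5 times. Over 2 pairs each, every r was also over 0.1 for LPS + Dex and LPS in wild-type cells (0.113 and 0.429). The same held for LPS between genotypes (0.112 and 0.134). In the remaining comparisons not named in the methods, not every same-number r was over 0.1. For wild-type LPS and vehicle the same-number correlations were −0.183 and −0.162 over 2 pairs.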
